A study of Saccharomyces cerevisiae with 8 samples.

Results

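The stretch of yeast 25S rRNA analysed here holds the 3′ part of domain V, with the P loop, helix 81, the helices of the central protuberance and the rRNA of the peptidyl transferase centre. It was chosen by its coordinates alone, begins 19 nucleotides 5′ of m3U2634 and comprises 382 of the 3396 nucleotides of 25S rRNA, out of 10000 rDNA positions in the deposited tables. In the R64 genome it lies, in the first rDNA repeat with an annotation, on the reverse strand of chromosome XII from 452186 to 452567, within RDN25-1. Large subunit precursors (preLSUs) were purified from Saccharomyces cerevisiae through Noc3-TAP, which enriches nuclear particles with 27SB pre-rRNA (27SB-preLSUs, cultures of 6 litres), or through Lsg1-TAP, which enriches cytoplasmic precursors near the end of maturation, together with free mature large subunits, whose 25S rRNA has its final ends (25S-preLSUs, cultures of 2 litres). For each purification, micrococcal nuclease (MNase) was fused to ribosomal protein rpL5, rpL27 or rpL35, or was absent. The fusion was the sole source of its protein, expressed from a plasmid under the RPS28 promoter in a strain deleted for RPL5, for both RPL27 genes or for both RPL35 genes. The control strains without MNase (no-MNase control) carried only the TAP-tagged bait. The tag was at the chromosomal locus of NOC3 or LSG1 in all strains, and the nuclease was switched on by calcium after purification. Each of the 8 conditions was represented by 1 library, so that no spread between replicates is known.

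The value analysed is the termination rate (TCR), which gives, for cDNA fragments made from random primers by reverse transcriptase, the fraction that ends at a nucleotide among all that cover it. Unless a single nucleotide is named, it is given here as a percentage for windows of 3 nucleotides, centred on the nucleotide named, and states how probable a stop at any of them is. A stop can mark a 5′ end made by the nuclease, but also a modified base or a structure that halts the enzyme. The tables give the authors' noise estimate for each nucleotide of each purification. Per the study's methods, an equal number of mapped reads was selected from each library. The coverage of single nucleotides was not part of the values used, so no interval is given. With fewer covering fragments, the smallest possible TCR above 0 is larger. At nucleotide 2656 alone, TCR in 27SB-preLSUs was 0.0259%, 0.143%, 0.0347% and 0.129% (MNase-rpL5, MNase-rpL27, MNase-rpL35, no MNase). In the same libraries, 32.5%, 47.4%, 30.1% and 46.6% of the nucleotides of the range were listed at 0. Fragments thus appear fewer for MNase-rpL27 and the no-MNase control of 27SB-preLSUs.

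The central protuberance is the head-like projection of the large subunit that is built around 5S rRNA. rpL5 binds 5S rRNA directly and reaches the ribosome with it, and in nuclear precursors this 5S particle sits in a rotated orientation before it turns into its mature place. The peptidyl transferase centre is the all-RNA active site where peptide bonds form. Its P loop and A loop pair with the CCA ends of the tRNAs in the P and A site. The region is rich in modified nucleotides. The m3U residues m3U2634 and m3U2843 carry a methyl group on the base-pairing edge, which interferes with copying by reverse transcriptase. Methyl groups on the ribose (2′-O-methylation) and pseudouridines leave that edge intact, though 2′-O-methylation can stall the enzyme under some conditions.

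The libraries did not all behave alike. In 27SB-preLSUs, 87 nucleotides of the range, m3U stops left out, had a TCR of at least 1% and above the noise in some library. At 64 of these (73.6%), both the MNase-rpL27 library and the no-MNase control exceeded both other libraries. In the rest of 25S rRNA the same held for 302 of 732 nucleotides (41.3%). In 25S-preLSUs the no-MNase control stood apart. It exceeded every fusion more than 2 times at 51 of 78 such nucleotides (65.4%), against 181 of 830 (21.8%) in the rest of 25S rRNA. Nucleotides entered these counts through any 1 library, so some could enter only through the library counted as high. In 25S-preLSUs, 86 of 372 nucleotides exceeded the noise in the no-MNase control, against 30 to 36 with the fusions. The shares thus describe the libraries and are no independent support. These features of the libraries touch most values described below, and their part in them was not tested.

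Between its strong stops, the stretch was quieter than the rest of 25S rRNA in most libraries but not in all. After leaving out 2 nucleotides on either side of each m3U, 372 nucleotides remained. Their median TCR in 27SB-preLSUs was 0.233% for MNase-rpL5, 0.462% for MNase-rpL27, 0.275% for MNase-rpL35 and 0.420% in the no-MNase control. The first and the third of these were below the medians of the rest of 25S rRNA (0.277% and 0.294%), and the others were above them (0.333% and 0.325%). In 25S-preLSUs the medians were 0.132%, 0.118% and 0.137% with the 3 fusions in the same order and 0.163% in the no-MNase control. All 4 lay below those of the rest of 25S rRNA, which were 0.315%, 0.233%, 0.326% and 0.182%. In 25S-preLSUs, 9.14%, 8.06% and 9.68% of the 372 nucleotides exceeded the noise with MNase-rpL5, MNase-rpL27 and MNase-rpL35, against 18.0%, 15.1% and 23.2% of the rest. Without MNase this share was 23.1% in the range and 21.5% in the rest. In 27SB-preLSUs the shares were 6.72%, 21.2% and 7.80% with the fusions, against 16.3%, 21.3% and 16.5% of the rest. The no-MNase control had 19.6% there, against 21.6% of the rest.

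**Figure D1:**
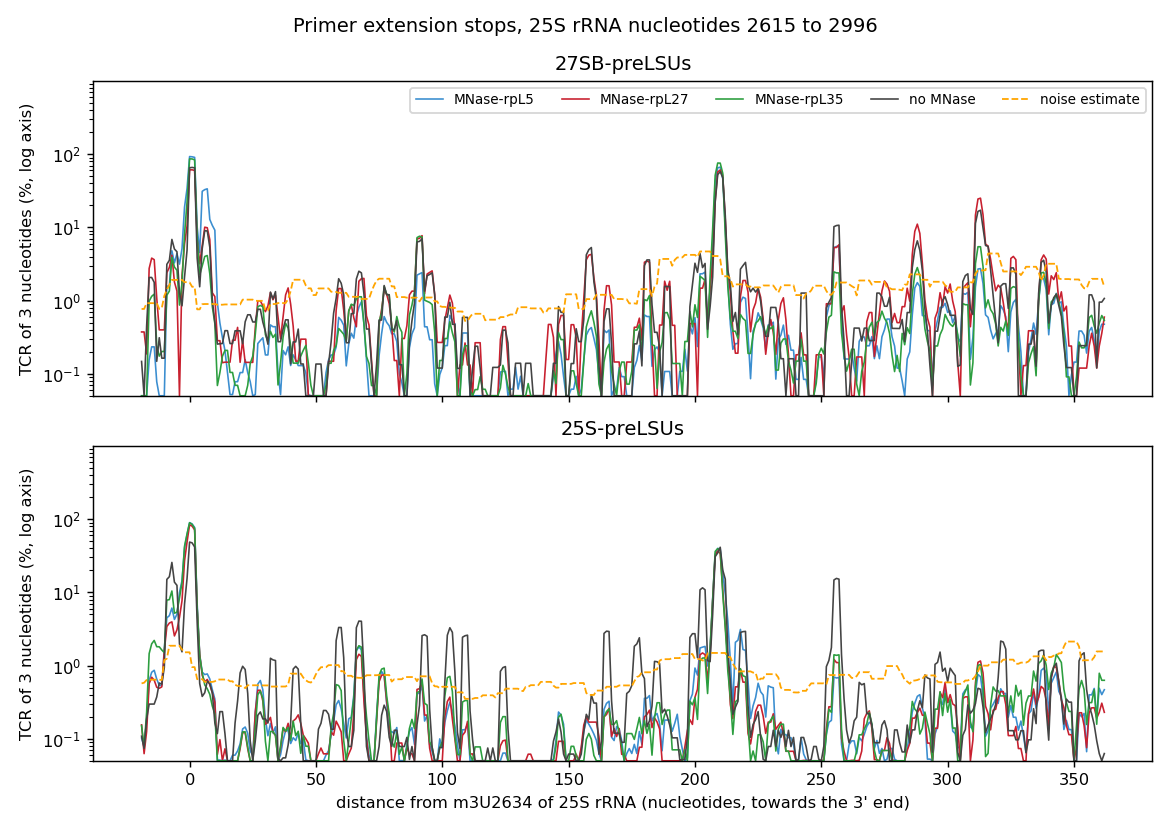
TCR of 3 nucleotides (percent, log axis, values under 0.05% drawn at 0.05%) along the range, given as distance from m3U2634, for 27SB-preLSUs (top) and 25S-preLSUs (bottom). Coloured lines are single libraries and the dashed line is the noise estimate. The m3U stops are the highest peaks in both precursors, the MNase-rpL5 line has a shoulder just 3′ of m3U2634 in 27SB-preLSUs only, and in 25S-preLSUs the no-MNase control exceeds the noise at 86 of 372 nucleotides, against 30 to 36 with the fusions.

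Cleavage by the tethered nuclease was sought as windows that reached a TCR of 15% and exceeded both the noise and the no-MNase control over 5 times. They also had to lie more than 2 nucleotides from m1A645, m1A2142 and both m3U. Nucleotides with other modifications, such as 2′-O-methylated ones, were not left out. In 27SB-preLSUs with MNase-rpL5, 1 of 372 windows passed, in helix 81 at nucleotide 2639. Over all of 25S rRNA, 0.0889% of windows passed in that library. No window of the range passed with MNase-rpL27 or MNase-rpL35 in 27SB-preLSUs, where 0.0593% and 0.237% of all windows were called. In 25S-preLSUs none passed with MNase-rpL5, MNase-rpL27 or MNase-rpL35, against 0.326%, 0.771% and 0.563% of all windows.

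With a lower bar (a TCR of 1%, above the noise and more than 2 times that of the no-MNase control), 10, 14 and 0 windows passed in 27SB-preLSUs with MNase-rpL5, MNase-rpL27 and MNase-rpL35, where 2.7%, 2.25% and 2.43% of 25S rRNA windows did. In 25S-preLSUs there were 6, 5 and 11 such windows, against 5.13%, 4.21% and 7.5% of 25S rRNA. Within the range, the share was 3.76% for MNase-rpL27 in 27SB-preLSUs, which was above the background of that library, and 2.69% for MNase-rpL5, which was at it. The shares in 25S-preLSUs were 1.61%, 1.34% and 2.96%, all below their backgrounds. The 14 windows of MNase-rpL27 in 27SB-preLSUs fell to 3 for single nucleotides, to 2 at 3 times the no-MNase control and to 3 at a minimum of 2%. The comparison was also made the other way round, a choice taken after the values had been seen. The no-MNase control exceeded the fusion over 2 times in 48, 7 and 48 windows of 27SB-preLSUs. These were 12.9%, 1.88% and 12.9% of the range, against 8.03%, 1.66% and 8.12% of 25S rRNA. In 25S-preLSUs it did so in 53, 60 and 56 windows. These were 14.2%, 16.1% and 15.1% of the range, against 11.3%, 12.8% and 8.36% of 25S rRNA. In 5 of the 6 comparisons, windows higher without MNase thus outnumbered those higher with the fusion. The same comparisons had this order over all of 25S rRNA, so it is not particular to the range.

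Helix 81 lies beside the helix of the P loop, at the base of the central protuberance. It held the single called window of the range and, the m3U stops left out, the largest difference between fusions. In 27SB-preLSUs, TCR at A2640 (chromosome XII 452542) was 32.8% for MNase-rpL5, 10.1% for MNase-rpL27, 4.00% for MNase-rpL35 and 8.997% in the no-MNase control. The MNase-rpL5 library was thus 3.65 times as high as the no-MNase control and 8.19 times as high as MNase-rpL35, at a noise of 0.897%. The window centred on A2640 was not called because the no-MNase control has a stop of its own there, while the neighbouring window at 2639 was called. That call was lost, leaving 0 sites, when 10 times the noise and the no-MNase control were asked for or when 5 nucleotides around each m3U were left out.

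Single nucleotides separated these stops. At A2640 itself the TCR was 30.3% for MNase-rpL5, 4.26% for MNase-rpL27, 2.30% for MNase-rpL35 and 4.04% in the no-MNase control. At 2641, the 3′ neighbour, the values were 3.01%, 5.60%, 1.50% and 4.50% in the same order. Of these neighbours, the excess with MNase-rpL5 was therefore at A2640, whereas at 2641 MNase-rpL5 was below MNase-rpL27 and the no-MNase control. A2640 is a known 2′-O-methylation site, and in the no-MNase control the stops at A2640 and 2641 were of like size.

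A further MNase-rpL5 stop lay at A2643 (chromosome XII 452539). There the window TCR in 27SB-preLSUs was 10.6% for MNase-rpL5, 1.28% for MNase-rpL27, 0.8287% for MNase-rpL35 and 1.02% in the no-MNase control, at a noise of 0.897%. MNase-rpL5 was 10.5 times the no-MNase control, 8.34 times MNase-rpL27 and 12.8 times MNase-rpL35, and it missed the call through the minimum of 15%. The no-MNase control and MNase-rpL35 were at or near the noise, which sets A2643 apart from A2640. As a single nucleotide, A2643 had a TCR of 8.42% for MNase-rpL5 and at most 0.993% in the other libraries.

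The MNase-rpL5 stops at A2640 and A2643 were absent or weak in 25S-preLSUs. At A2640, 25S-preLSUs had 0.753% for MNase-rpL5, 0.599% for MNase-rpL27, 0.545% for MNase-rpL35 and 0.426% in the no-MNase control, at a noise of 0.598%. At A2643 they had 0.469%, 0.426%, 0.280% and 0.424%, all below the noise. Taken over nucleotides 2639 to 2644, the probability of any stop with MNase-rpL5 was 39.96% in 27SB-preLSUs, against 1.22% in 25S-preLSUs. In the other libraries it was 11.2% (MNase-rpL27), 4.80% (MNase-rpL35) and 9.92% (no MNase) in 27SB-preLSUs. In 25S-preLSUs these libraries had 1.02%, 0.823% and 0.847%. The fall between the precursors was thus not confined to MNase-rpL5, although that library had the largest difference. Differences between the precursors cannot be told apart from differences between the 2 purifications or their library preparations.

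**Figure D2:**
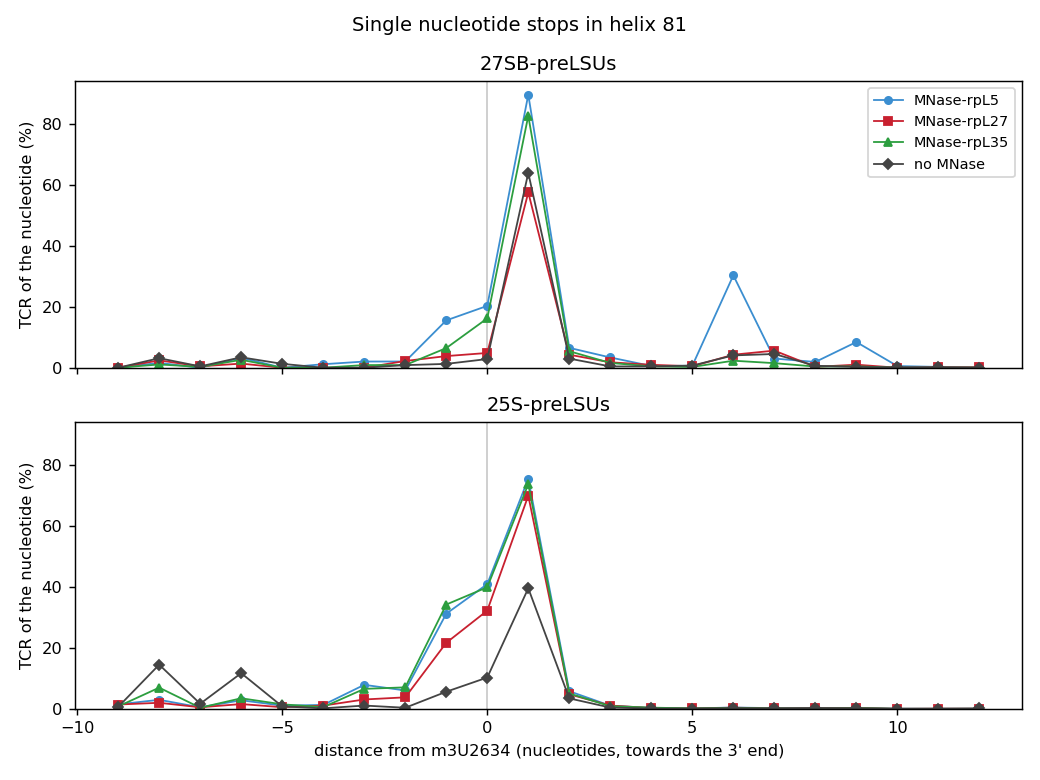
TCR of single nucleotides (percent) by distance from m3U2634, 1 line per library, for 27SB-preLSUs (top) and 25S-preLSUs (bottom). In 27SB-preLSUs the MNase-rpL5 library reaches 30.3% at 6 nucleotides and 8.42% at 9 nucleotides 3′ of m3U2634, where 25S-preLSUs have no peak, and all libraries peak 1 nucleotide 3′ of m3U2634.

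The main stop of helix 81 was at m3U2634, the base methylated on its pairing edge. It was present without MNase and is therefore left out of the calls. In 27SB-preLSUs it reached 92.9% for MNase-rpL5, 61.2% for MNase-rpL27, 86.3% for MNase-rpL35 and 66.0% in the no-MNase control. In 25S-preLSUs it reached 89.99%, 84.0%, 89.5% and 48.7% in the same order. The precursors overlapped, with means of 76.6% ± 15.4 (SD over 4 libraries of different strains) in 27SB-preLSUs, against 78.1% ± 19.7 in 25S-preLSUs. The difference of 1.45 percentage points was not resolved in a two-sided exact permutation test of 4 against 4 libraries (p = 0.914, Benjamini-Hochberg adjusted p = 0.914 for the family of m1A645, m1A2142, m3U2634 and m3U2843), with 2 of 4 libraries higher in 25S-preLSUs.

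The nucleotide at which this stop was highest was the same in all 8 libraries. The highest single nucleotide was 2635, 1 nucleotide 3′ of the modified base, with 89.5%, 57.5%, 82.6% and 63.9% in 27SB-preLSUs, against 75.4%, 69.9%, 73.6% and 39.5% in 25S-preLSUs (MNase-rpL5, MNase-rpL27, MNase-rpL35, no MNase). Reverse transcriptase moves towards the 5′ end of the template, so a stop at 2635 ends just before the modified base. Some of the fragments that passed 2635 ended at the modified base. At m3U2634 itself the single nucleotide TCR was 20.3%, 4.84%, 16.2% and 2.85% in 27SB-preLSUs, against 40.9%, 32.2%, 39.8% and 10.2% in 25S-preLSUs.

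Stops continued 5′ of m3U2634, in fragments that had passed it. At 2633 the single nucleotide TCR in 27SB-preLSUs was 15.5% for MNase-rpL5, 3.81% for MNase-rpL27, 6.43% for MNase-rpL35 and 1.26% in the no-MNase control. In 25S-preLSUs it was 31.2%, 21.6%, 34.2% and 5.60%. Each library was higher in 25S-preLSUs, by 2.01, 5.67, 5.31 and 4.46 times, and in both precursors the 3 fusions were above the no-MNase control.

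A window further away, centred on 2631 in helix 81, also had all 3 fusions above the no-MNase control. In 27SB-preLSUs it had 5.12% for MNase-rpL5, 2.20% for MNase-rpL27, 1.72% for MNase-rpL35 and 0.847% in the no-MNase control, where only the first 2 exceeded the noise of 1.92%. In 25S-preLSUs it had 14.5%, 7.67%, 13.6% and 1.54%, at a noise of 1.66%. MNase-rpL5 was 9.39 times and MNase-rpL27 4.97 times the no-MNase control in 25S-preLSUs. Over 2630 to 2633 the probability of any stop was 41.1%, 27.6%, 43.1% and 7.05% in 25S-preLSUs and 19.8%, 5.93%, 8.04% and 2.09% in 27SB-preLSUs. Unlike the stops at A2640 and A2643, this excess was shared by all 3 fusions.

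Just 3′ of m3U2634 the window at 2637 was high in every library and takes in the stop at 2636. It had 10.2%, 6.87%, 7.29% and 3.81% in 27SB-preLSUs, against 6.97%, 6.00%, 6.17% and 3.89% in 25S-preLSUs. Here the libraries differed by less than 3 times, and the no-MNase control was lowest in both precursors.

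Near the approximate 5′ boundary of helix 81, 7 nucleotides 5′ of m3U2634, the no-MNase control was instead the highest library in both precursors. In 25S-preLSUs the window TCR was 6.11% for MNase-rpL5, 3.96% for MNase-rpL27, 10.5% for MNase-rpL35 and 25.7% in the no-MNase control. In 27SB-preLSUs it was 4.79%, 4.16%, 3.91% and 6.85%. The no-MNase control was 2.46 times the highest fusion in 25S-preLSUs and 1.43 times in 27SB-preLSUs. These stops were at 8 and 6 nucleotides 5′ of m3U2634, with single nucleotide TCRs of 14.5% and 11.7% in the no-MNase control of 25S-preLSUs, while the nucleotide between them had 1.66%.

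The P loop, whose guanine Gm2619 is 2′-O-methylated, gave weak stops. The window at 2620 in 27SB-preLSUs had 0.233% for MNase-rpL5, 3.62% for MNase-rpL27, 1.22% for MNase-rpL35 and 1.77% in the no-MNase control, at a noise of 0.922%. In 25S-preLSUs it had 0.863%, 0.632%, 2.21% and 0.298%, at a noise of 0.641%. MNase-rpL35 was thus the highest library in 25S-preLSUs and MNase-rpL27 in 27SB-preLSUs.

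Helices 82 to 88 form the rRNA body of the central protuberance and several of them contact 5S rRNA and its proteins. These 154 nucleotides had low medians in every library, 0.105%, 0.299%, 0.140% and 0.273% in 27SB-preLSUs, against 0.0856%, 0.0748%, 0.0789% and 0.105% in 25S-preLSUs. No window of these helices was called with any fusion, MNase-rpL5 included. Over all of 25S rRNA at most 0.771% of windows were called in any library, so the absence among 154 says little about these helices. The highest window of 27SB-preLSUs lay at 2725 and 2726, next to the 2′-O-methylated uridine Um2724. At 2725 the TCR was 2.32% for MNase-rpL5, 7.08% for MNase-rpL27, 7.58% for MNase-rpL35 and 6.44% in the no-MNase control. In 25S-preLSUs it was 0.417%, 0.484%, 0.443% and 0.286%, below the noise of 0.714% in all 4 libraries.

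In 25S-preLSUs the highest window of these helices was at 2701, with 1.81%, 1.43%, 1.87% and 4.06%. The values in 27SB-preLSUs were 0.811%, 1.84%, 1.13% and 2.52%, so that the no-MNase control was highest in both precursors.

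The peptidyl transferase ring follows towards the 3′ end, with helices 89 to 93 attached to it. Its highest stop was at m3U2843 in helix 89, which lines the path of the aminoacyl tRNA into the A site. In 27SB-preLSUs it reached 66.6% for MNase-rpL5, 60.9% for MNase-rpL27, 75.7% for MNase-rpL35 and 57.8% in the no-MNase control. In 25S-preLSUs it reached 39.9%, 36.8%, 39.7% and 41.4%. The groups did not overlap, and every library was lower in 25S-preLSUs.

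The means were 65.3% ± 7.88 (SD over 4 libraries) in 27SB-preLSUs, against 39.5% ± 1.93 in 25S-preLSUs, a difference of -25.8 percentage points. The two-sided exact permutation test gave p = 0.0286, the smallest value that the 70 arrangements allow, and an adjusted p of 0.0381 in the same family of 4. With the libraries paired by fusion, the exact test over signs gave p = 0.125, which is the smallest that 4 pairs allow, and 0.167 after adjustment. Leaving out any 1 of the 4 libraries of 27SB-preLSUs (MNase-rpL5, MNase-rpL27, MNase-rpL35 or the no-MNase control) gave an adjusted p of 0.114, with the unadjusted exact p still at 0.0286. The libraries of a purification came from different strains, so these tests measure the spread between strains and not between repeats. The stops at m1A645 and m1A2142, outside the range, were also lower in 25S-preLSUs in all 4 libraries, with differences of -1.55 and -7.83 percentage points (adjusted p = 0.0381 each, exact permutation test). Paired by fusion, they too had p = 0.125 each in the exact test. The difference at m3U2843 was the largest of the 4.

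**Figure D3:**
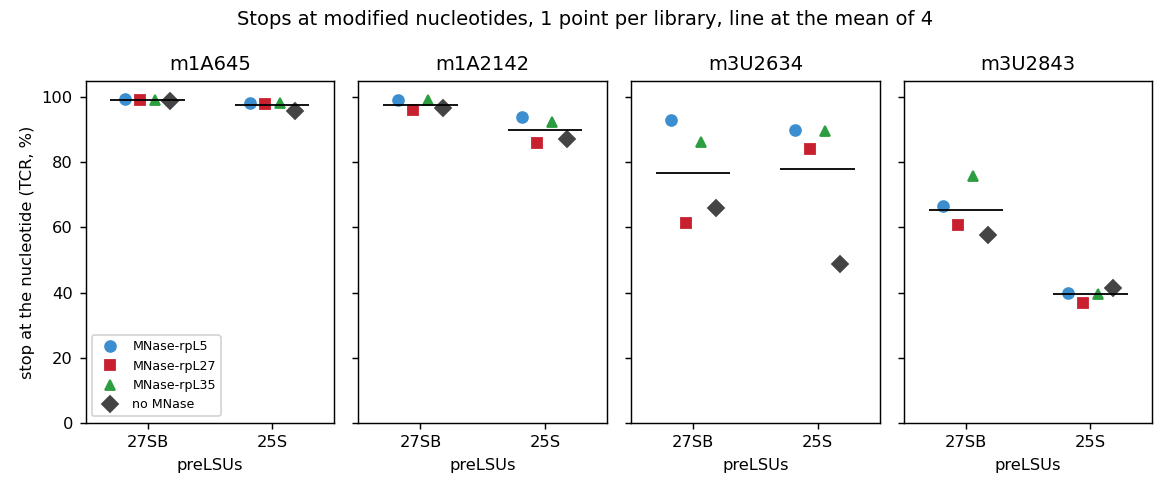
Stop at the modified nucleotides m1A645, m1A2142, m3U2634 and m3U2843 (TCR in percent) in 27SB-preLSUs and 25S-preLSUs, 1 point per library and a line at the mean of 4 libraries. At m3U2843 the libraries of 25S-preLSUs lie between 36.8% and 41.4%, all below those of 27SB-preLSUs, while at m3U2634 the precursors overlap.

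The place of the stop also changed between the precursors. At 2844, 1 nucleotide 3′ of the modified base, the single nucleotide TCR in 27SB-preLSUs was 40.5% for MNase-rpL5, 45.1% for MNase-rpL27, 51.1% for MNase-rpL35 and 39.5% in the no-MNase control. In 25S-preLSUs it was 10.6%, 7.76%, 6.81% and 6.44%, which makes 27SB-preLSUs 3.82 to 7.51 times as high. At the modified base itself the values were 38.6%, 20.2%, 46.3% and 20.3% in 27SB-preLSUs, against 27.9%, 26.8%, 31.0% and 27.3% in 25S-preLSUs.

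The nucleotide with the highest TCR was thus 2844 in all 4 libraries of 27SB-preLSUs and m3U2843 in all 4 libraries of 25S-preLSUs. At m3U2843, MNase-rpL27 and the no-MNase control were lower in 27SB-preLSUs than in 25S-preLSUs, while MNase-rpL5 and MNase-rpL35 were higher. The loss in 25S-preLSUs therefore concerned the stop before the modified base in every library, and the stop at it only in MNase-rpL5 and MNase-rpL35. At m3U2634 the nucleotide with the highest TCR was 2635 in both precursors. The TCR at that modified base was nevertheless higher in 25S-preLSUs in every library.

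**Figure D4:**
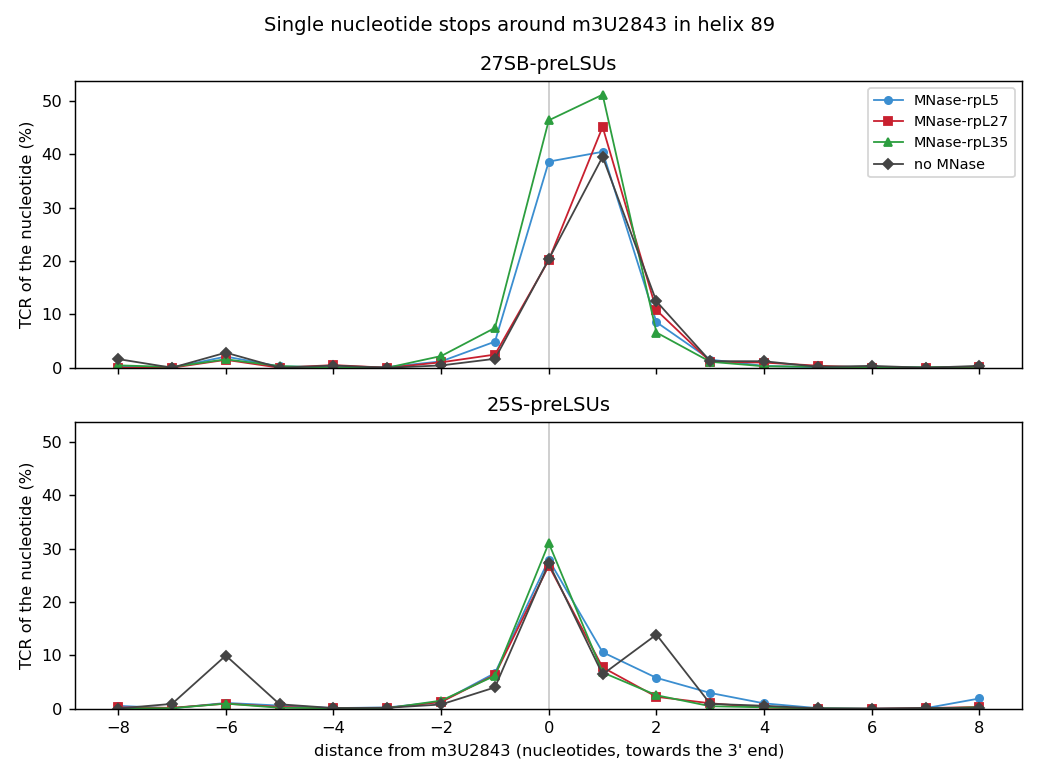
TCR of single nucleotides (percent) by distance from m3U2843, 1 line per library, for 27SB-preLSUs (top) and 25S-preLSUs (bottom). The highest point of each line is 1 nucleotide 3′ of m3U2843 in 27SB-preLSUs and at m3U2843 in 25S-preLSUs, and the no-MNase control has further points of 9.98% and 13.9% on either side in 25S-preLSUs.

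Stops next to m3U2843 varied with the library. The window at 2846 had 10.2%, 12.7%, 7.88% and 14.6% in 27SB-preLSUs, against 9.52%, 3.47%, 3.28% and 15.2% in 25S-preLSUs (MNase-rpL5, MNase-rpL27, MNase-rpL35, no MNase). The no-MNase control was highest in both. At 2837, 5′ of the m3U in helix 89, the no-MNase control had 11.6% in 25S-preLSUs, against 1.79%, 1.49% and 1.27% with the fusions. In 27SB-preLSUs all 4 libraries were below the noise of 4.69% there, with 2.33%, 1.48%, 2.02% and 2.82%. The window at 2852 was highest with MNase-rpL5 in 25S-preLSUs, at 3.12%, but the no-MNase control had 2.84%, and MNase-rpL27 and MNase-rpL35 had 0.884% and 0.909%.

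Among the named windows, the stop with the highest ratio of the no-MNase control to every fusion lay in helix 91. At 2890 (chromosome XII 452292) the TCR in 25S-preLSUs was 0.677% for MNase-rpL5, 1.10% for MNase-rpL27, 1.38% for MNase-rpL35 and 15.5% in the no-MNase control. That library was 11.3 times the highest fusion. In 27SB-preLSUs the values were 5.50%, 5.31%, 2.39% and 10.6%, all above the noise of 1.76%, and the no-MNase control was 1.93 times the highest fusion. The stop was at 2890 itself, with single nucleotide TCRs of 14.1% in 25S-preLSUs and 9.94% in 27SB-preLSUs without MNase.

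In the range, 13 nucleotides were listed here as 2′-O-methylated from general knowledge of yeast rRNA, since the deposited tables mark only m1A, m3U and m5C. The positions were not checked against a reference. A2817 was the only one below the noise in all 4 libraries of 27SB-preLSUs, with 0.126%, 0.278%, 0.249% and 0.882% at a noise of 1.16%. It is part of all counts of 13 below. They include Gm2619 of the P loop, Um2921 and Gm2922 of the A loop, and Am2946 and Cm2948 beside the ring. In 27SB-preLSUs their windows exceeded the noise at 3, 12, 7 and 12 of 13 (MNase-rpL5, MNase-rpL27, MNase-rpL35, no MNase), with median TCRs of 0.696%, 4.28%, 1.46% and 4.98%. Of all 372 nucleotides, 6.72%, 21.2%, 7.80% and 19.6% did so in these libraries. In 25S-preLSUs they exceeded it at 2, 3, 2 and 1 of 13, with medians of 0.358%, 0.215%, 0.255% and 0.254%, where 9.14%, 8.06%, 9.68% and 23.1% of the 372 nucleotides did. At 11 of 13 in 27SB-preLSUs, MNase-rpL27 and the no-MNase control were both above the other 2 libraries. This order was also found at 64 of the 87 nucleotides with stops above the noise (73.6%). Those 87 had entered through any 1 library, these 2 included, whereas the 13 came from a list.

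Apart from A2640, described with helix 81, the highest of them lay at Am2946 to Cm2948. At 2947 the TCR in 27SB-preLSUs was 2.73% for MNase-rpL5, 25.1% for MNase-rpL27, 5.43% for MNase-rpL35 and 17.1% in the no-MNase control, at a noise of 2.58%. In 25S-preLSUs it was 0.706%, 1.16%, 1.04% and 0.475%, at a noise of 0.998%. MNase-rpL27 was 1.46 times the no-MNase control in 27SB-preLSUs, so that the high value is not a call for the nuclease.

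The A loop pairs with the end of the incoming tRNA. At Gm2922 it gave 1.76%, 11.1%, 2.83% and 6.55% in 27SB-preLSUs, at a noise of 2.28%. In 25S-preLSUs the 4 libraries had 0.380%, 0.227%, 0.232% and 0.243%, at a noise of 0.635%. The same pair of libraries was high at Gm2793, near the 3′ end of helices 82 to 88, which gave 0.428%, 4.28%, 0.724% and 5.31% in 27SB-preLSUs. In 25S-preLSUs it gave 0.137%, 0.169%, 0.0985% and 0.400%. Gm2815, in the strand of helix 74, gave 0.605%, 3.47%, 0.996% and 3.59% in 27SB-preLSUs and at most 0.358% in 25S-preLSUs. At all 3 places, MNase-rpL27 and the no-MNase control were the high libraries of 27SB-preLSUs.

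**Figure D5:**
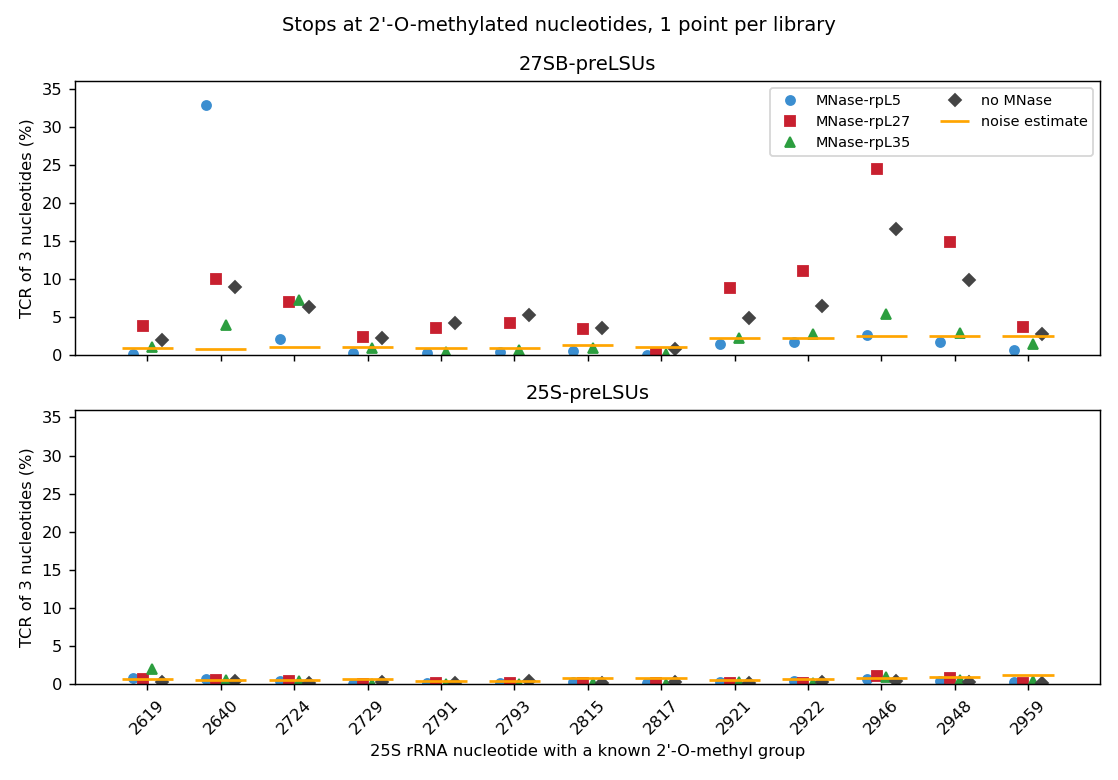
TCR of 3 nucleotides (percent) at the 13 nucleotides listed as 2′-O-methylated, 1 point per library, with the noise estimate as a bar, for 27SB-preLSUs (top) and 25S-preLSUs (bottom). In 27SB-preLSUs the MNase-rpL27 library and the no-MNase control lie above the noise at 12 of 13 nucleotides each, MNase-rpL5 has its highest point at A2640 (32.8%), and no point exceeds 1.98% in 25S-preLSUs.

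Of 6 pseudouridines listed here from general knowledge, a list that may lack others in the range, 1 exceeded the noise in 27SB-preLSUs. It did so with MNase-rpL27 and without MNase, where 21.2% and 19.6% of all nucleotides did, and it is Ψ2923, the neighbour of Gm2922. None of these 6 exceeded the noise in 25S-preLSUs. At m5C2870, which carries its methyl group away from the pairing edge, all 8 libraries were below the noise, the highest being 0.545% for MNase-rpL27 in 27SB-preLSUs.

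Of 3 nucleotides listed for the active site, A2820 and U2954 were below the noise in all 8 libraries, and A2971 was above it in 27SB-preLSUs. A2820, in the inner shell of the active site, had 0.197%, 0.463%, 0.197% and 0.230% in 27SB-preLSUs, against 0.163%, 0.136%, 0.311% and 1.07% in 25S-preLSUs. A2971, a flexible base of helix 93, had 2.04%, 3.60%, 2.39% and 3.32% in 27SB-preLSUs, all above the noise of 1.86%, and in 25S-preLSUs only the no-MNase control exceeded it, with 1.62% against 1.34%.

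Each library was compared between the precursors over all 382 nucleotides, and a window was counted when its TCR differed over 2 times and by more than both noise estimates. With MNase-rpL5, 9 windows were higher in 25S-preLSUs and 15 in 27SB-preLSUs, where 2.33% and 4.27% of 25S rRNA windows were. With MNase-rpL27 the counts were 6 and 60, against 3.89% and 10.8% of 25S rRNA. With MNase-rpL35 they were 12 and 15, against 7.33% and 3.92%. Without MNase they were 23 and 39, against 8.6% and 6.89%.

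Within the range these counts correspond to 2.36% and 3.93% for MNase-rpL5, 1.57% and 15.7% for MNase-rpL27, 3.14% and 3.93% for MNase-rpL35 and 6.02% and 10.2% in the no-MNase control. Windows higher in 27SB-preLSUs outnumbered the others in all 4 libraries, and by most in MNase-rpL27. For MNase-rpL5 both shares were near those of all 25S rRNA (2.33% and 4.27%). The share higher in 27SB-preLSUs was also near that of all 25S rRNA for MNase-rpL35 (3.92%). Windows more than 4 nucleotides from an m3U numbered 6 and 13, 1 and 57, 8 and 12, and 21 and 37 in the same order. With the no-MNase control subtracted, the 66 differences of MNase-rpL27 in both directions fell to 19, and the 27 of MNase-rpL35 to 16. Among windows more than 4 nucleotides from an m3U, the largest falls with MNase-rpL27 were at 2947, Gm2922 and A2640, and without MNase at the same 3 places, all at or next to 2′-O-methylated nucleotides. With MNase-rpL5 they were at 2641, 2644 and 2890. At this distance from an m3U, the largest gains in 25S-preLSUs were 18.9 percentage points at 7 nucleotides 5′ of m3U2634 in the no-MNase control, 6.66 points at 9 nucleotides with MNase-rpL35 and 3.24 points at 8 nucleotides with MNase-rpL5, all at the border of helices 80 and 81. With MNase-rpL27 the gains at this distance did not exceed 1.73 points. Nearer to m3U2634, at 2631, the gains were 9.35, 5.46 and 11.9 points with MNase-rpL5, MNase-rpL27 and MNase-rpL35.

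The profiles of single nucleotides were alike in part. Over the 372 nucleotides, Spearman's rho within 27SB-preLSUs lay between 0.592 and 0.710, and was highest between MNase-rpL5 and MNase-rpL35. Within 25S-preLSUs it lay between 0.602 and 0.761, and the 3 lowest values were those with the no-MNase control. For the same library in both precursors it was 0.610 with MNase-rpL5, 0.464 with MNase-rpL27, 0.532 with MNase-rpL35 and 0.451 in the no-MNase control. These values describe likeness across nucleotides of the same rRNA, which share sequence, structure and modifications and are not independent.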

How the data were processed

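Per the labels and the study's methods, RNA of purified preLSUs was copied from random primers, inserts of limited size were sequenced, and reads were mapped to the rDNA (Bowtie2, R64 and sacCer3 are named in the submitters' processing notes, without versions). The authors deposited, for each purification and nucleotide, the TCR as a fraction of the estimated unique cDNA fragments covering it, and a noise estimate as a fraction. The methods state that equal numbers of mapped reads were selected per library. No coverage of single nucleotides was used here, so the fragments behind a TCR were not counted. There was 1 library per condition.

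The range is nucleotides 2615 to 2996 of 25S rRNA. Helix names and limits were set by fixed coordinates, through an approximate correspondence with the bacterial rRNA numbering. From these fractions, the TCR of a window was taken as 100% minus the percentage of fragments expected to pass all 3 nucleotides, which is the product of the shares that pass each. At m1A and m3U the highest window within 2 nucleotides was taken, and precursors were compared with two-sided exact permutation tests of 4 against 4 libraries. The named nucleotides were m3U2634, m3U2843, A2640, A2643, called sites, the 5 highest windows per library at least 3 apart, the 3 largest precursor differences each way, and listed modified or catalytic nucleotides. Members, lists and rules were chosen with earlier results of these data known. The calling was tested on simulated data. Stops were placed there only away from m1A and m3U and where noise and the no-MNase control were low, so sites such as A2640 were not covered. Window width, thresholds, noise and distance from m3U were varied, and each library was left out in turn. No sequence was used. Chromosome positions follow from RDN25-1 (XII, 451786 to 455181, reverse strand) in RefSeq's R64. Python 3.11.15, numpy 2.4.6, pandas 2.3.3, scipy 1.17.1 and matplotlib 3.10.9 were used.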

Additional observations from a re-analysis of the deposited data

Results flagged for a closer look

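For the m3U stops and the named windows, the 4 libraries of each purification were searched for a library whose gap to its nearest neighbour exceeded Dixon's limit for 4 values. Of 93 such groups, 15 passed. Chance passes about 1 in 20 of unselected groups, and neighbouring windows share stops. Many of these windows, however, were named for high values or large precursor differences in these same libraries. The count can therefore not be set against that rate. The 4 libraries come from different strains, so that a library that stands apart can also be a fusion with a stop of its own. In 25S-preLSUs the no-MNase control stood apart 7 times. It was low at m3U2634, with 48.7% against 84.0% to 89.99%. It was high at 2701 with 4.06% (others 1.43% to 1.87%), at 2726 with 2.57% (0.541% to 0.655%), at 2837 with 11.6% (1.27% to 1.79%), at 2890 with 15.5% (0.677% to 1.38%), at 2891 with 15.2%, and at Um2729 with 0.254% (0.0743% to 0.0914%), which is below the noise of 0.714%. MNase-rpL5 stood apart in 27SB-preLSUs at A2643 with 10.6% (others 0.8287% to 1.28%) and at 2644 with 9.16% (0.483% to 1.13%), which share 1 stop, and was low there at 2726 with 2.41% (6.99% to 7.71%). In 25S-preLSUs its 0.380% at Gm2922 (others 0.227% to 0.243%) was below the noise of 0.635%. MNase-rpL27 stood apart in 27SB-preLSUs at A2820 with 0.463%, at U2954 with 1.62% and at Ψ2975 with 2.18%, all below the noise. MNase-rpL35 stood apart in 25S-preLSUs at 2622, in the P loop helix, with 1.81% (others 0.489% to 0.579%), above the noise of 0.641%.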

How the results depend on the processing

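The m3U2843 stop was lower in 25S-preLSUs under every alternative run, with -15.8 percentage points for the highest single nucleotide and -24.5 points for any of the 5 nucleotides (adjusted p = 0.0381 for both, exact permutation test). With the replicate block, pairing libraries by fusion, the difference was -25.8 points with an adjusted p of 0.167, and leaving out 1 library gave -28.3 to -22.3 points. Leaving out any library of 27SB-preLSUs raised the adjusted p to 0.114, while the unadjusted exact p stayed at 0.0286. The labels number each condition as replicate 1, so pairing rests on the fusion alone. The difference at m3U2634 was unstable. It was -8.76 points with the highest single nucleotide, 1.45 points with the block (p = 0.75, exact test), and -3.68 to 11.2 points when 1 library was left out, with 11.2 points without the 25S-preLSU library that lacks MNase and -3.68 points without the 27SB-preLSU library of MNase-rpL27.

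For MNase-rpL5 in 27SB-preLSUs the count of 1 called site became 2 at a minimum of 10% or 5% and 0 at 10 times noise and no MNase or with 5 nucleotides around m3U left out. For MNase-rpL5 and MNase-rpL35 in 25S-preLSUs, 0 sites became 1 at a minimum of 10% or 5% or with 2 neighbours on either side. The other 3 counts stayed at 0 throughout. Weaker windows numbered 5, 3 and 1 in 27SB-preLSUs with MNase-rpL5, MNase-rpL27 and MNase-rpL35 for the stop nucleotide alone, and 3 and 2 in 25S-preLSUs with MNase-rpL27 and MNase-rpL35. At 3 times the library without MNase they numbered 6 and 2 in 27SB-preLSUs with MNase-rpL5 and MNase-rpL27, and 1 and 7 in 25S-preLSUs with MNase-rpL27 and MNase-rpL35. At a minimum of 2% they numbered 3 with MNase-rpL27 in 27SB-preLSUs and 2 and 3 with MNase-rpL27 and MNase-rpL35 in 25S-preLSUs. With 2 neighbours, MNase-rpL35 in 27SB-preLSUs had 2. Precursor differences numbered 24, 66, 27 and 62 (MNase-rpL5, MNase-rpL27, MNase-rpL35, no MNase) and became 14, 22, 12 and 27 for the stop nucleotide alone. With 2 neighbours they were 108 for MNase-rpL27 and 94 without MNase, and with the library without MNase subtracted 19 for MNase-rpL27 and 16 for MNase-rpL35. The causes of these shifts were not tested.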
